A study of Mus musculus with 15 samples.

Results

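The B cell antigen receptor genes followed here were *Cd79a*, *Cd79b*, *Ighm*, *Ms4a1*, *Pax5* and *Blk*, 6 of 18279 genes measured by bulk RNA sequencing in 15 subcutaneous Renca tumors. *Cd79a* was picked because its fall between *Pbrm1* knockout and control tumors was among the largest of all genes, and the others were added by name as B cell genes. For these 6 genes the differences between knockout and control tumors are therefore given as a description without a test. Renca is a murine renal cell carcinoma line of BALB/c origin. Cells were injected in Matrigel under the skin of the back of female BALB/c mice that were 4 to 6 weeks old when bought. Tumors 1 to 5 grew from control cells, tumors 6 to 10 from *Pbrm1* knockout clone #4 and tumors 11 to 15 from *Pbrm1* knockout clone #18. The sample records call the control cells parental, whereas the design text and the paper call them control knockout cells, which means cells given a control CRISPR/Cas9 plasmid. The knockout cells were made by transient transfection with *Pbrm1* CRISPR/Cas9 plasmids and a repair plasmid that carries puromycin resistance and red fluorescent protein, and each clone came from sorting of single cells. Each group is thus 1 cell line, and an effect of *Pbrm1* loss cannot be told apart from other differences between the lines. Whether a given mouse received PD-1 antibody was not given in the sources used here, and tumors were taken at a size limit, at ulceration or at distress. The records name separate tumors, so the p values below measure the spread between tumors within a line.

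The B cell antigen receptor is a membrane immunoglobulin held together with a signaling heterodimer of CD79a and CD79b, also named Igα and Igβ. Both chains carry an immunoreceptor tyrosine-based activation motif that Src-family kinases such as BLK and LYN phosphorylate after antigen binding, and SYK is then recruited. *Ighm* encodes the constant region of the IgM heavy chain, *Ms4a1* encodes the surface protein CD20, and *Pax5* encodes the transcription factor that holds cells in the B lineage and acts on the *Cd79a* promoter in B cells. In a tumor, these transcripts are usually read as signs of infiltrating B cells. In bulk RNA, fewer cells of a type and less RNA per cell cannot be told apart.

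*Pbrm1*, a subunit of the PBAF chromatin remodeling complex and the targeted gene, checks the labels. Its normalized counts ran from 7451.5 to 9870.6 among the controls, with a mean of 9012 ± 956.3 (SD). Clone 4 tumors averaged 2751 ± 212.7 (SD) and clone 18 tumors 2838 ± 210.3 (SD), with 5 tumors in every group. Knockout tumors averaged 31.0% of the controls, and no knockout tumor reached a control (log2 difference -1.69, SE 0.07, limma adjusted p = 2.94e-11). A normalized count is the number of reads on a gene divided by a size factor of the tumor, and log2 values are log2(normalized count + 1). The tumors held 32924414 to 49099168 reads on genes, so 1 read was worth a normalized count of 0.881 to 1.31.

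*Cd79a* (ENSMUSG00000003379, GRCm38 chromosome 7, 24897381 to 24902197, plus strand) encodes the Igα chain. The sequence before its start is shown because *Cd79a* carried the largest difference of the 6 genes and because its promoter is a textbook target of B cell factors. RefSeq promoter windows were available for 2 of the 6 genes, *Cd79a* and *Pax5*. The *Cd79a* stretch covers the 134 bases before the start of the GENCODE gene, at chr7:24897247-24897380 of GRCm38.p6 on the plus strand. Capitals mark an E-box (CAGGTG) and the ETS core (GGAA, or TTCC when read on the other strand).
Cd79a: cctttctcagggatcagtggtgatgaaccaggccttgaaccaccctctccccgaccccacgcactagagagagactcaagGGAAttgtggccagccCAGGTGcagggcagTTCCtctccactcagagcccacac
Over the RefSeq window of 250 bases before its own start, which lies 116 bases inside the first GENCODE exon, the *Cd79a* promoter held 1 E-box and 4 ETS cores on either strand. Of 32851 windows of that length, 17.2% held the E-box and 93.4% the ETS core. The octamer (ATGCAAAT, in 1.6% of windows), the core of the EBF1 palindrome (CCCNNGGG, in 11.8%) and the SP1 box (GGGCGG, in 32.7%) had 0 matches there. A match of letters is a description and not a binding site. Only these exact letters were searched, so 0 matches do not show that a factor has no site there. Capitals likewise do not show which factor binds.

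*Cd79a* was present in control tumors and nearly missing in knockout tumors. The normalized counts were 24.4, 374.3, 160.4, 219.6 and 76.1 in control tumors 1 to 5, from 21, 425, 173, 196 and 72 reads. They were 1.0, 2.9, 0, 1.1 and 2.2 in tumors 6 to 10 of clone 4, and 1.0, 2.5, 5.2, 1.0 and 1.1 in tumors 11 to 15 of clone 18. The highest knockout tumor thus stood below the lowest control tumor. All 10 knockout tumors lay below every control tumor, a pattern that held for 4.87% of all 18250 genes tested, and the pattern is what led to the choice of this gene. The control mean was 171 ± 136.3 (SD, n = 5) and the knockout mean was 1.80 ± 1.47 (SD, n = 10), a fold of 94.98. The log2 difference, knockout minus control, was -5.60 (SE 0.52), and 4 of the 18250 genes tested had a lower value. In reads, the controls held 887 and the knockouts 16, or 4.17 against 0.04 CPM (reads on the gene scaled to all reads on genes). That is a fold of 104.3 with an exact interval for counting error of 63.9 to 183.3. The interval leaves out the spread between tumors and the choice of the gene, and control tumor 2 alone gave 425 of the 887 reads.

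The 5 control tumors did not carry similar *Cd79a* levels. Tumor 2 was the highest and tumor 1 the lowest, and the variance was 104.9 times that of counting noise (chi-square per degree of freedom, with 4 degrees). In clone 4 and clone 18 the same measure was 0.884 and 1.33, so the knockout tumors varied about as much as the sampling of a few reads would give. A ranking of the knockout tumors by *Cd79a* is therefore not meaningful at this depth. Clone 18 and clone 4 were not part of the choice and could be tested against each other. Their log2 difference, clone 18 minus clone 4, was 0.36 with a 95% interval of -0.93 to 1.65 (limma adjusted p = 0.813), in a comparison in which 4.62% of all genes tested passed the threshold of 0.05.

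*Cd79b* (ENSMUSG00000040592, chromosome 11, 106311341 to 106314762, minus strand), the Igβ partner chain, differed far less between the groups. Its normalized counts were 95.2, 41.4, 75.1, 50.4 and 63.4 in control tumors 1 to 5. In clone 4 they were 25.1, 37.3, 21.9, 21.6 and 45.7, and in clone 18 they were 18.4, 16.0, 28.8, 34.1 and 57.1. Of the knockout tumors, 8 of 10 lay below every control tumor, and tumors 10 and 15 overlapped the controls. Relative to controls the mean stood at 0.47, and the log2 difference was -1.11 (SE 0.29). Clone 18 and clone 4 differed by -0.05 on the log2 scale (95% interval -0.77 to 0.67, limma adjusted p = 0.962).

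The balance of the heterodimer partners was thus not the same in all tumors. Per kilobase of exon, *Cd79a* to *Cd79b* stood at 0.252, 8.88, 2.10, 4.28 and 1.18 in control tumors 1 to 5. In the 10 knockout tumors the ratio lay between 0 and 0.177, below each control. The log2 ratio of the normalized counts averaged 0.93 ± 1.93 (SD) over the 5 controls, against -3.76 ± 0.48 (SD) over the 5 clone 4 tumors and -3.35 ± 1.12 (SD) over the 5 clone 18 tumors. The clones differed by 0.41 (exact permutation test, two-sided, p = 0.452, where the smallest possible p is 0.00794). In every knockout tumor *Cd79b* reads outnumbered *Cd79a* reads, while in controls this was so for tumor 1 alone.

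*Ighm* (ENSMUSG00000076617, chromosome 12, 113418558 to 113422730, minus strand), the heavy chain constant region of IgM, had the highest mean per kilobase of the 6 in the control tumors, although *Cd79a* stood above it in tumor 2 (256.9 against 188.7). Its normalized counts were 2192.2, 355.8, 1471.6, 504.2 and 1352.3 in control tumors 1 to 5. In clone 4 they were 646.1, 547.5, 412.8, 455.1 and 823.2, and in clone 18 they were 213.3, 247.3, 223.8, 136.3 and 372.8. Control tumors 2 and 4, the 2 tumors with the most *Cd79a*, had the least *Ighm* of the controls. Tumor 4 lay within the range of clone 4 and tumor 2 below that range. The log2 difference was -1.42 (SE 0.43) for all knockout tumors, -0.77 for clone 4 alone and -2.07 for clone 18 alone. All 5 clone 18 tumors lay below every clone 4 tumor, a pattern whose share over all genes was not counted. Clone 18 minus clone 4 was -1.30 on the log2 scale (95% interval -2.14 to -0.46). This did not pass the threshold over all genes with limma (adjusted p = 0.0752), but passed with DESeq2 on the recovered reads (adjusted p = 0.0470) and with limma when control tumor 2 was left out (adjusted p = 0.0332).

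**Figure D1:**
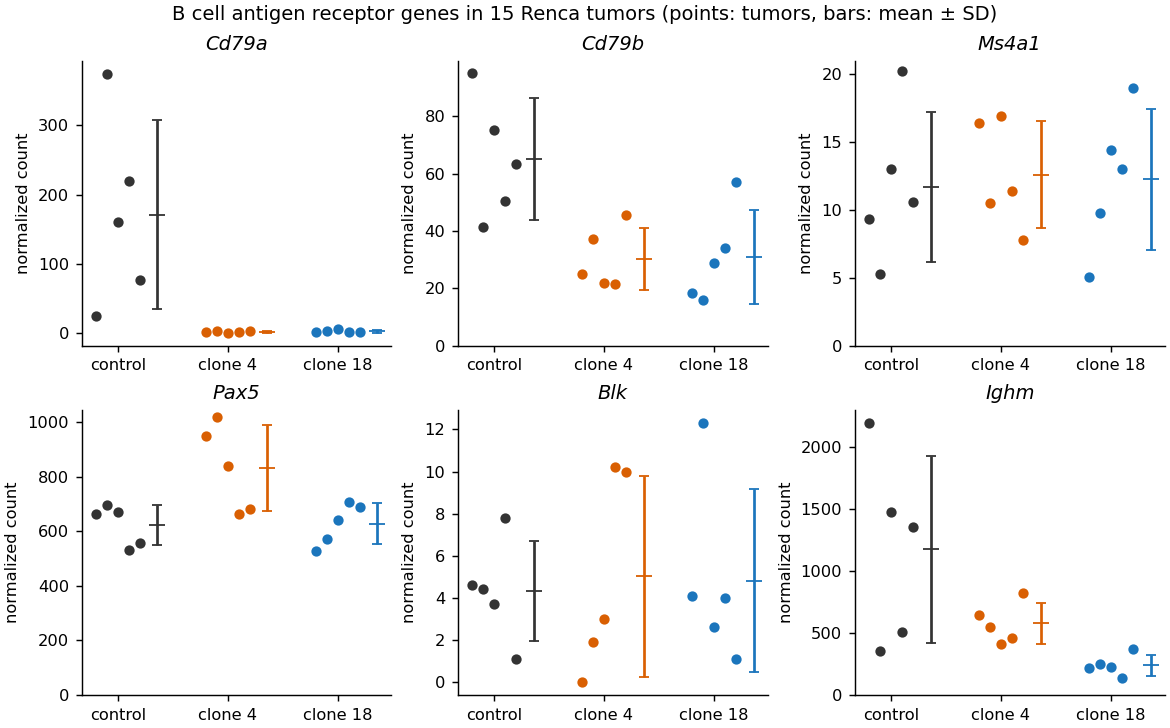
Normalized counts (vertical axis, linear, a separate scale per gene) of the 6 genes in control, clone 4 and clone 18 tumors, with 1 point per tumor in order of tumor number and the mean ± SD beside them. *Cd79a* is at most 5.2 in knockout tumors against 24.4 to 374.3 in controls, whereas *Ms4a1*, *Pax5* and *Blk* overlap between all groups.

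The other 3 genes did not follow *Cd79a*. *Pax5* (ENSMUSG00000014030, chromosome 4, 44524757 to 44710487, minus strand) had normalized counts of 663.8, 695.8, 670.4, 533.4 and 556.2 in control tumors 1 to 5. They were 951.8, 1020.6, 841.5, 664.5 and 682.9 in clone 4, and 529.6, 573.4, 642.7, 707.7 and 689.6 in clone 18. Clone 4 tumors thus reached the highest values, and the log2 difference from the controls was 0.40 (SE 0.13) in clone 4 and 0.01 (SE 0.13) in clone 18. Clone 18 minus clone 4 was -0.39 (95% interval -0.66 to -0.12), which missed the threshold with limma (adjusted p = 0.0929) and passed with DESeq2 (adjusted p = 0.0416). *Pax5* overlaps 4 annotated genes, among them *Mir5120* on its own strand and *Gm12462* on the other, and the strand setting of the counting was not given in the sources used here, so their reads could not be told apart.

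*Ms4a1* (ENSMUSG00000024673, chromosome 19, 11249675 to 11266241, minus strand) and *Blk* (ENSMUSG00000014453, chromosome 14, 63372836 to 63417037, minus strand) were at low levels throughout. *Ms4a1* had normalized counts of 9.3, 5.3, 13.0, 20.2 and 10.6 in control tumors 1 to 5. They were 16.4, 10.5, 16.9, 11.4 and 7.8 in clone 4, and 5.1, 9.8, 14.4, 13.0 and 19.0 in clone 18. The groups overlapped along their whole range, with a log2 difference of 0.12 (SE 0.32) between knockout and control tumors, which became -0.11 without control tumor 2. *Blk* had 4.6, 4.4, 3.7, 7.8 and 1.1 in controls, 0, 1.9, 3.0, 10.2 and 10.0 in clone 4, and 4.1, 12.3, 2.6, 4.0 and 1.1 in clone 18, at a log2 difference of -0.09 (SE 0.55). The sign of that difference depends on the method, since the mean was 4.92 in knockouts and 4.32 in controls, and edgeR and DESeq2 each gave 0.18. *Blk* had 10 reads or fewer in every tumor, which limits the precision of its values, and it was the 1 gene of the 6 with a mean normalized count under 10. Between the clones, *Ms4a1* differed by -0.09 (95% interval -0.90 to 0.72, limma adjusted p = 0.936) and *Blk* by 0.17 (95% interval -1.20 to 1.53, limma adjusted p = 0.929). *Ms4a1* overlaps *4930526L06Rik* on the other strand.

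Levels per kilobase of exon allow a rough comparison between genes. The length used was that of all annotated exons of a gene together, which can exceed that of the transcript expressed. In control tumors the means per kilobase were 623.1 for *Ighm*, 117.3 for *Cd79a*, 70.5 for *Pax5*, 45.5 for *Cd79b*, 1.89 for *Ms4a1* and 1.60 for *Blk*. The SD of *Cd79a* took in the means of *Pax5* and *Cd79b*, and those of *Ms4a1* and *Blk* overlapped. In knockout tumors the order became *Ighm* at 216.2, *Pax5* at 82.5, *Cd79b* at 21.4, *Ms4a1* at 2.01, *Blk* at 1.82 and *Cd79a* at 1.24. *Cd79a* thus moved from the second place to the last, and the 3 lowest genes did not differ beyond their spread in knockout tumors. CD20, encoded by *Ms4a1*, is a defining surface protein of mature B cells, and its transcript stood at 1.61% of the *Cd79a* level per kilobase in control tumors. That share depends on the exon lengths used, 6187 bases for *Ms4a1* and 1457 for *Cd79a*. Before division by length, the control means were 11.68 and 171.

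In the control tumors, none of the other genes of the receptor shared the order of *Cd79a*. In the knockout tumors *Cd79a* varied about as much as counting noise. Correlations that include the knockout tumors therefore cannot show that tracking was absent there. Among control tumors, *Cd79a* ran from tumor 2 through 4, 3 and 5 down to tumor 1. *Cd79b* and *Ighm* shared a different order, from tumor 1 through 3, 5 and 4 down to tumor 2. The highest and the lowest tumor were exchanged between the orders. With only 5 controls, no correlation was computed among them alone. After the mean of each group was removed, *Cd79a* and *Ighm* had r = -0.53 over 15 tumors (permutation p = 0.164, adjusted 0.819 over 5 pairs) and rho = -0.32 (permutation p = 0.340, adjusted 0.778). Without tumors 1 and 2, the 2 farthest from the median in *Cd79a*, r was -0.01, so the value rests on those tumors. *Cd79a* and *Cd79b* had r = -0.25 (permutation p = 0.359, adjusted 0.877) and rho = -0.14 (permutation p = 0.644, adjusted 0.778), and r = 0.12 without the same tumors. For *Ms4a1*, *Pax5* and *Blk*, r was -0.11, 0.02 and 0.16, rho was -0.11, 0.08 and 0.19, and the adjusted permutation p was 0.877 or above for r and 0.778 for rho.

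Within the 10 knockout tumors, where *Cd79a* had at most 4 reads, r with *Cd79a* lay between -0.20 (*Ms4a1*) and 0.17 (*Cd79b*). The clone means were not removed here, so each r takes in differences between the clones. Each adjusted permutation p was 0.854 or above for r and 0.788 for rho. At that depth these values cannot decide whether *Cd79a* tracked the other genes. Among the other 5 genes, a family of 10 pairs added after the values were seen, *Cd79b* and *Ighm* had the highest r after removal of the group means, 0.61 (permutation p = 0.0117, adjusted 0.117), with rho = 0.61 (permutation p = 0.0192, adjusted 0.192). It was 0.67 without tumors 12 and 15, and 0.30 in the 10 knockout tumors alone, where the clone means were kept. *Pax5* and *Blk* had r = -0.61 (permutation p = 0.0459, adjusted 0.230) and rho = -0.58 (permutation p = 0.0623, adjusted 0.312), and r fell to -0.29 without tumors 9 and 10. No pair passed the threshold of 0.05 after adjustment.

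**Figure D2:**
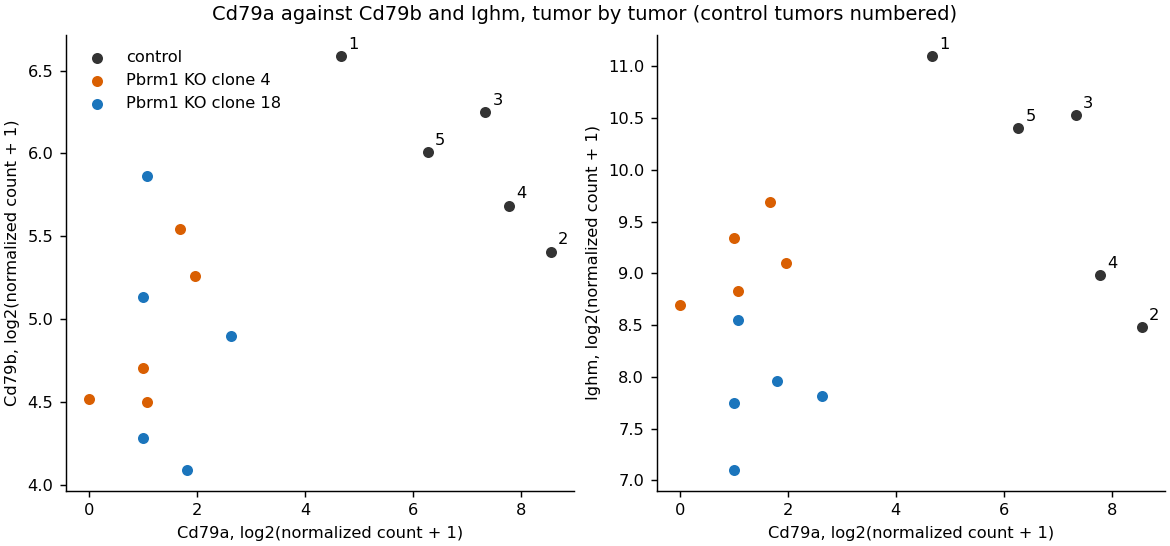
*Cd79b* (left) and *Ighm* (right) against *Cd79a*, all as log2(normalized count + 1), with 1 point per tumor and the control tumors numbered. Control tumor 2 has the most *Cd79a* and the least *Cd79b* and *Ighm* of the controls, and tumor 1 the reverse. The knockout tumors stand at the left edge, with *Cd79b* normalized counts of 16.0 to 57.1 against 41.4 to 95.2 in controls.

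The genes whose pattern was most like *Cd79a* came from outside the list of B cell genes used below. Ranked by r with *Cd79a* over all 15 tumors among 16493 genes whose normalized counts averaged 10 or more, *Cd79b* came at place 1891 (r = 0.62) and *Ighm* at place 3387 (r = 0.44). *Ms4a1* and *Pax5* came at places 10094 and 12627, with r of -0.14 and -0.37. *Blk*, whose mean was under 10, was not among the genes ranked, and its r was 0.10. The 10 highest genes included *Ip6k3*, *Arl11*, *Etl4*, *Gm5624*, *1500011B03Rik*, *Wscd2*, *Mustn1*, *AU021092* and *P2rx3*, with r between 0.95 and 0.97. Such an r takes in the step between control and knockout tumors, and it is given without a p. In 9 of the 10, tumor 2 was also the highest control tumor, and 0 of the 10 were on that list. Only 36 of the 16493 genes ranked were on the list, so 0 of 10 carries little information.

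*P2rx3*, an ATP-gated ion channel known from sensory neurons, had normalized counts of 157.8, 3758.2, 1362.2, 2527.9 and 298.2 in control tumors 1 to 5 and 12.3 to 63.1 in knockout tumors. Its order of control tumors was that of *Cd79a*. *Wscd2* had 22, 234.3, 119.6, 188.2 and 25.4 in controls and at most 5.6 in knockouts, in the same order. *Gm5624* had 4.6, 83.7, 35.2, 56.0 and 4.2 in controls and 0 in all 10 knockout tumors. *Mustn1*, a small nuclear protein of the musculoskeletal system, lay at 732.7 to 1110.6 in controls and 27.9 to 69.4 in knockouts. After removal of the group means the most similar genes were *Rnf128* (r = 0.87), *Gstm6* (0.87), *Clec11a* (0.85), *Pinx1* (0.85) and *Iqcg* (0.85), of which 4 had tumor 2 as the highest control. *Clec11a*, a secreted growth factor, had 44.1, 603.3, 292.1, 387.7 and 117.4 in control tumors 1 to 5, again in the order of *Cd79a*. The genes most like the mean z-score of the other 5 members included *Rnf122* (r = 0.81), *Arhgap27os1* (0.80), *Rasal3* (0.80) and *Hyi* (0.79), and in each of them control tumor 2 was the lowest. All genes of this paragraph were chosen for their likeness, so shared orders of the control tumors follow in part from the choice.

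**Figure D3:**
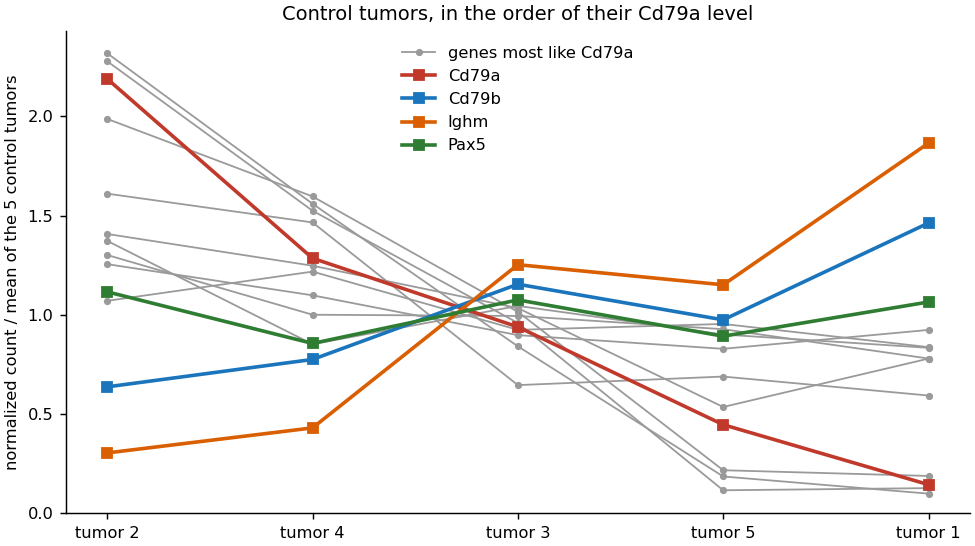
Normalized counts of the 5 control tumors, each divided by the mean of the 5, for *Cd79a*, *Cd79b*, *Ighm*, *Pax5* and the genes named above for their high r with *Cd79a* over 15 tumors (grey). Tumors are placed in the order of their *Cd79a* level. The grey lines were chosen for their likeness to *Cd79a* and fall from left to right with it, whereas *Cd79b* and *Ighm* rise.

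The genes on either side of *Cd79a* on chromosome 7 were chosen by position and could be tested. *Arhgef1*, a RhoGEF whose gene begins 0.7 kb after *Cd79a*, had a log2 difference of -0.04 (SE 0.08, limma adjusted p = 0.762). *Rabac1*, 67.6 kb after, had -0.10 (SE 0.10, limma adjusted p = 0.540), and *Gm9844*, 34.7 kb before, had -0.85 (SE 0.50, limma adjusted p = 0.248). The ribosomal protein gene *Rps19*, 7.6 kb before, was lower by -0.31 (SE 0.08, limma adjusted p = 0.0102), and copies of ribosomal protein genes elsewhere in the genome can share its reads. The nearest measured gene on each side thus differed by at most 0.31 on the log2 scale.

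A more distant neighbor differed more. *Ceacam10*, a member of the carcinoembryonic antigen family that lies 112.7 kb before *Cd79a*, had normalized counts of 24.4, 111.0, 30.6, 70.6 and 13.7 in control tumors 1 to 5 and 0 to 6.2 in knockout tumors. Its log2 difference was -4.28 (SE 0.60, limma adjusted p = 7.02e-05), and all 10 knockout tumors lay below every control tumor. Control tumors 2, 4 and 3 came first in this order for *Cd79a* and *Ceacam10* alike. Reads of *Ceacam10* may be shared with related family members.

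**Figure D4:**
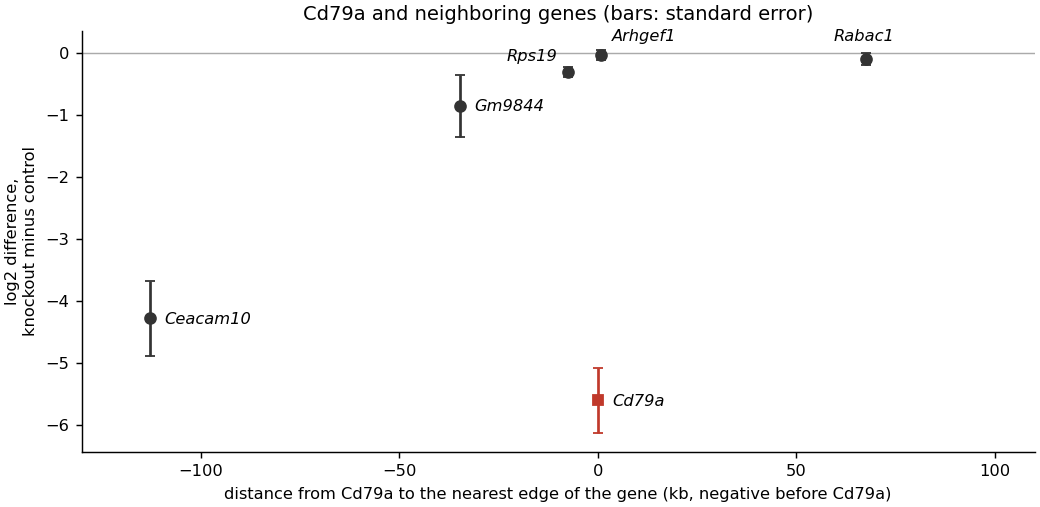
Log2 difference, knockout minus control, with its standard error for *Cd79a* (red square) and the 5 neighbors described, against the distance in kb to the nearest edge. *Arhgef1* and *Rabac1* lie near 0, *Rps19* at -0.31 and *Ceacam10* at -4.28.

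Other genes of the pathway and the lineage were taken from a list of 58 B cell genes, of which 44 were analysed here. Of the 44, 9 were lower in knockout tumors, 1 was higher and 34 did not pass the threshold. The 20.5% that were lower stand beside 12.9% of all genes tested, the single higher gene beside 9.23%, and 22.1% of all genes passed in either direction. Against the same controls, 3 were lower in clone 4 alone and 12 in clone 18 alone, and the difference between these counts was not tested. The share of all genes lower in each clone alone was not counted, so these counts cannot be set against a background. The median log2 difference was -0.36 over the 44 and -0.02 over all genes. Without control tumor 1 and clone 4 tumor 10 the counts were 4 lower and 0 higher, and they were 3, 4 and 4 lower without control tumor 1, 3 or 5.

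Of the immunoglobulin constant regions, 2 of 9 were lower. *Igha*, the IgA heavy chain, had normalized counts of 154.3, 11.4, 23.2, 23.5 and 96.2 in control tumors 1 to 5 and 0 to 28.6 in knockouts, with a log2 difference of -2.68 (SE 0.88, limma adjusted p = 0.0364). *Ighd*, the IgD heavy chain of naive B cells, had 34.8, 4.4, 18.5, 11.2 and 22.2 in controls and 0 to 11.2 in knockouts, with -1.79 (SE 0.56, limma adjusted p = 0.0273). Both groups overlapped for both genes. The *Ighd* call was lost without control tumor 1, 3 or 5 (limma adjusted p = 0.0644 to 0.0914). The *Igha* call was lost without any of tumors 1, 3, 4, 5, 8, 12, 13 or 15 (limma adjusted p = 0.0513 to 0.122). *Igkc*, the kappa light chain, had 66.1, 9.7, 24.1, 37.0 and 113.1 in controls and 3.0 to 20.1 in 4 clone 4 tumors, but 467.9 in clone 4 tumor 10. Its log2 difference was -1.53 (SE 0.91, limma adjusted p = 0.254), and without tumor 10 it was -2.10 (limma adjusted p = 0.0181). Control tumor 2, the tumor with the most *Cd79a*, had the lowest *Igkc*, *Igha* and *Ighd* of the controls, and clone 4 tumor 10, the tumor with the most *Igkc*, had 2 reads of *Cd79a*.

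Plasma cell genes gave 0 lower and 1 higher of 6. *Xbp1*, a transcription factor of secretory cells, was higher by 0.17 (SE 0.06, limma adjusted p = 0.0416), at 5097.8 to 5817.8 in controls and 5464.0 to 6754.7 in knockouts, a call that was lost without any of tumors 1, 2, 3, 5, 8, 10, 11, 12, 13 or 15 (limma adjusted p = 0.0537 to 0.114). *Jchain*, which joins IgM and IgA polymers, had 40.6, 1.8, 7.4, 13.4 and 67.7 in controls and 110.3 in clone 4 tumor 10 against 0 to 9.6 in the other knockout tumors, at -1.45 (SE 0.94, limma adjusted p = 0.300). Of 7 transcription factors, *Ikzf3* (Aiolos) was lower by -2.09 (SE 0.66, limma adjusted p = 0.0308), with 106.8 in control tumor 1, 18.5 to 28.5 in the other controls and 0 to 36.8 in knockouts. That call was lost without control tumor 1 (limma adjusted p = 0.112), without tumor 5 (limma adjusted p = 0.0584) and, just above the threshold, without tumor 4. *Ebf1*, the factor that opens the B lineage program with *Pax5*, had 88.5 to 203.1 in controls and 113.4 to 332.0 in knockouts, at 0.53 (SE 0.22, limma adjusted p = 0.0940), and passed without control tumor 3 (0.71, limma adjusted p = 0.0294). The single pre-B cell gene analysed, *Dntt*, did not pass.

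Of 12 genes that signal downstream of the receptor, 5 were lower. *Ptpn6*, the phosphatase SHP-1, had 2620.2 to 3855.2 in controls and 1552.7 to 2472.8 in knockouts, without overlap, at -0.59 (SE 0.11, limma adjusted p = 0.00106). *Plcg2*, a phospholipase, was lower by -0.27 (SE 0.07, limma adjusted p = 0.00810) and the adaptor *Dapp1* by -0.23 (SE 0.06, limma adjusted p = 0.00832). These 3 calls held without control tumor 1 and clone 4 tumor 10. *Prkcb*, a protein kinase C, was at -0.53 (SE 0.19, limma adjusted p = 0.0487) and the exchange factor *Vav1* at -0.40 (SE 0.13, limma adjusted p = 0.0332), and both calls were lost without those 2 tumors (limma adjusted p = 0.184 and 0.0796). Without a single tumor, the *Vav1* call was lost for tumors 1, 3 and 5 (limma adjusted p = 0.0847 to 0.121) and the *Prkcb* call for tumors 1, 3, 5 and 10 to 15 (limma adjusted p = 0.0579 to 0.171). *Prkcb* was also lower in clone 18 than in clone 4, by -0.62 (limma adjusted p = 0.0363). In that comparison 2 of the 44 list genes were called, both lower in clone 18, beside 4.62% of all genes. Of 9 surface proteins, 1 was lower, *Tnfrsf13b* (the receptor TACI), at -0.56 (SE 0.16, limma adjusted p = 0.0161), a call that was lost without control tumor 1 or 3 (limma adjusted p = 0.0633 and 0.0584). *Cd22*, an inhibitory coreceptor, had 73.1 to 230.9 in controls and 71.4 to 216.0 in knockouts, at -0.16 (SE 0.28, limma adjusted p = 0.75).

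**Figure D5:**
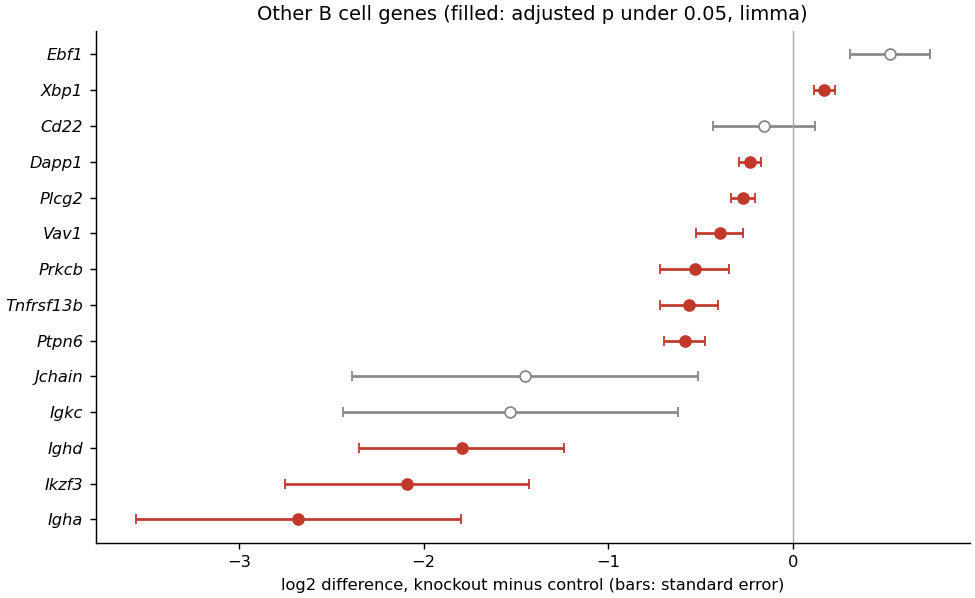
Log2 difference, knockout minus control, with its standard error for the named genes of the B cell list. Filled points passed an adjusted p of 0.05 with limma. *Igha*, *Ikzf3* and *Ighd* are the lowest, at -2.68, -2.09 and -1.79, and *Xbp1* is the single filled point above 0.

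Some markers of other cells passed the threshold in the same comparison, in which 12.9% of all genes were lower and 22.1% passed either way. With 2 to 6 markers analysed per cell type, a count of 1 is close to those shares. Of 5 macrophage markers, *Csf1r*, *Mrc1* and *C1qa* were lower in knockout tumors, and their summed normalized counts were 64392 to 83061 in controls and 46726 to 63260 in knockouts. Of 6 T cell markers, *Cd3d* and *Cd3g* were lower, with sums of 413.9 to 1112 in controls, the highest in control tumor 1, and 439 to 669.8 in knockouts. Of 5 neutrophil markers, 2 were lower, with sums of 760.1 to 1720 in controls and 494.4 to 1959 in knockouts. Of 5 plasmacytoid dendritic cell markers, 1 was lower, with sums of 119.6 to 208.9 in controls and 47.7 to 121.4 in knockouts. Of 2 markers of lymph node stroma, *Cxcl13*, the chemokine that draws B cells, was lower, with sums of 33.4 to 175.3 in controls and 1.3 to 173.8 in knockouts. Of 4 NK cell markers 0 passed, at sums of 7.1 to 69.6 in controls and 1.1 to 65.8 in knockouts. Of 6 markers of the carcinoma cells 1 was lower (*Krt18*) and 1 higher (*Epcam*), and their sums were 107887 to 128975 in controls and 90885 to 121015 in knockouts. No marker that was analysed was at 0 in every tumor, and some listed markers of NK cells and lymph node stroma were not among those analysed. *Ptpn6*, *Plcg2*, *Vav1* and other signaling genes of the B cell list are expressed by myeloid cells as well, and the part of such cells in the differences was not tested.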

How the data were processed

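Bulk RNA from 15 Renca tumors was measured in 3 groups of 5. The deposited values are a signal, for which the authors used TopHat2 (alignment, mm10), HTSeq (counts on genes) and DESeq (size factors). Values are rounded to 0.1. Tool versions, gene annotation and strand setting were not given in the sources used here. Up to a value of 8000, each tumor's values fell on multiples of 1 step (tolerance 0.05), which gave back the reads.

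Of 18279 genes, 29 were at 0 everywhere and 18250 were tested on log2(normalized count + 1) with limma 3.58.1 with trend, knockout against control and, with 1 term per group, clone 18 against clone 4. Benjamini-Hochberg adjusted p values ran over all genes, at 0.05. Correlations used 100000 permutations of tumors within groups, two-sided, and the ratio an exact test over 252 splits. Intervals of reads cover counting error only. The scripts were tested on simulated data.

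The 6 genes and all lists were chosen with earlier results of these data known. Named genes were the 6, *Pbrm1*, list genes past the threshold plus *Cd22*, *Ighd*, *Igkc*, *Jchain* and *Ebf1*, the genes with the highest r and the neighbors of *Cd79a*, 3 on each side. Some genes that these rules name are not reported here. Alternatives were pseudocounts of 0.1 and 5, a mean of at least 10, upper quartile scaling, limma without trend, edgeR 4.0.16, DESeq2 1.42.0, each clone alone and each tumor left out. Positions and exon lengths are from GENCODE M21 (GRCm38), matched by symbol for 96.7% of genes, and the promoter is from RefSeq. R 4.3.3 and Python 3.11.15 were used.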

Additional observations from a re-analysis of the deposited data

Results flagged for a closer look

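Dixon's criterion was applied to 102 sets of 5 tumors, and a lone high tumor was found in 12 of them. Chance gives about 5.1 lone tumors if the sets are independent and normally distributed. Some summed sets hold genes that were also taken alone, such as *Igkc* and *Jchain*, so the 12 cannot be set directly against the 5.1. In clone 4, tumor 10 lay above the rest for *Igkc* (467.9 against 3.0 to 20.1) and *Jchain* (110.3 against 0 to 9.6). The same tumor lay apart in summed normalized counts of the immunoglobulin constant regions (1099 against 10 to 64.9) and NK cell markers (65.8 against 1.1 to 18.2). It also lay apart for neutrophil markers (1959 against 494.4 to 742.4) and lymph node stroma markers (173.8 against 3.9 to 9.1), while its *Cd79a* normalized count was 2.2. For plasma cell genes it lay apart by a smaller factor, at 36859 against 33884 to 34400, and the controls held 36702 to 40239. Control tumor 1 lay apart for *Ikzf3* (106.8 against 18.5 to 28.5) and for the pre-B cell gene *Dntt* (13.9 against 1.9 to 5.3), and control tumor 3 for *Ebf1* (203.1 against 88.5 to 120.5). In clone 18, tumor 12 lay apart for *Blk* (12.3 against 1.1 to 4.1) and tumor 15 for *Ighd* (11.2 against 0 to 3.0). These low values rest on few reads. No cause was tested.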

How the results depend on the processing

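Of 1017 alternative values, 898 kept their direction and side of the threshold (for counts, they stayed within 1.5 times), 52 lost a call, 6 gained one, 40 changed sign and 21 moved. The *Cd79a* difference between knockout and control was -6.49 and -4.26 with pseudocounts of 0.1 and 5, -6.51 with edgeR, -6.62 with DESeq2 and -6.16 to -5.19 with each tumor left out. DESeq2 called 1359 genes between the clones against 844 with limma. Left-out tumors gave 3219 to 4182 calls for knockout against control and 632 to 878 between the clones. Of the B cell list, 5 genes were lower with a pseudocount of 0.1, 4 without tumors 1 and 10, 3 in clone 4 alone, 12 in clone 18 alone and 3 to 12 with each tumor left out. Higher genes numbered 0 with limma without trend, without tumors 1 and 10 and in clone 4 alone, 2 in clone 18 alone, and 0 to 1 with each tumor left out.

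Clone 18 minus clone 4 became 0.0416 (edgeR), 0.0400 (DESeq2) and 0.106 (without tumors 1 and 10) for *Cd79b*, and -0.0219 (edgeR) and -0.0423 (DESeq2) for *Blk*. With each tumor left out it was -0.31 to 0.14 for *Cd79b*, -0.27 to 0.16 for *Ms4a1* and -0.36 to 0.52 for *Blk*. Knockout minus control became 0.18 with edgeR and with DESeq2 and 0.0138 with a pseudocount of 5 for *Blk*, and was -0.39 to 0.15 for *Blk* and -0.11 to 0.33 for *Ms4a1* with each tumor left out. It became 0.0185 for *Cd22* without tumors 1 and 10 and 0.17 for *Igkc* with edgeR, whereas DESeq2 gave -2.18 for *Igkc* (adjusted p = 0.000756). The r of *Cd79a* without the 2 farthest tumors was 0.12 with *Cd79b* and 0.00 with *Ms4a1* over 15 tumors, and 0.21 with *Pax5* and 0.34 with *Ighm* in knockout tumors. With a pseudocount of 0.1 it was -0.01 for *Pax5*. With each tumor left out it was -0.27 to 0.19 for *Ms4a1* and -0.12 to 0.17 for *Pax5* over 15 tumors, and -0.46 to 0.01 for *Ms4a1*, -0.45 to 0.02 for *Pax5* and -0.19 to 0.18 for *Ighm* in knockout tumors. The cause was not tested. No paired analysis was possible because the tumor numbers 1 to 15 are each used once. Leaving out tumors 1 and 10 together and the pairs among the other 5 genes were chosen after the data were seen. *Cd79a* at 4 reads or fewer and *Blk* at 10 or fewer limit what knockout tumors can show.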
